A study of Mus musculus with 24 samples.

Results

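The comparison set liver RNA from mice lacking JNK2 in hepatocytes against liver RNA from control mice, both fed a high fat diet for 16 weeks. Its changes rest on 6 of the 24 RNA-seq libraries of the study, chosen by their labels, and on all 31027 loci of the deposited table. The 3 Jnk2 libraries came from C57BL/6J mice that carried the Alb-Cre transgene and conditional (flox) alleles of Jnk2 on both chromosomes (AlbCre+ Jnk2flox/flox), which the labels term a knock down. The 3 control libraries came from C57BL/6J mice with Alb-Cre alone, labelled wild type (AlbCre+). Alb-Cre uses the albumin promoter, so recombination is confined largely to hepatocytes, and endothelial, stellate and immune cells of the liver keep the gene. The other groups used are AlbCre+ Jnk2flox/flox and AlbCre+ livers after 16 weeks on chow, and, on high fat, AlbCre+ Jnk1flox/flox livers and AlbCre+ livers with flox alleles of both genes, called Jnk1 and Jnk1Jnk2 here. Jnk1 and Jnk1Jnk2 livers after 16 weeks on chow were not compared here. They entered the filter on low values, the principal components and the estimate of spread, which used all 24 libraries of 8 groups. Each group had 3 libraries. Age and sex are not given in the labels, and the labels do not say that libraries are separate mice, so each p-value reflects variation among these libraries, part of which may be technical.

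JNK1 and JNK2, the products of Mapk8 and Mapk9, are stress-activated protein kinases that are switched on by the kinases MKK4 and MKK7 in response to cytokines, saturated fatty acids and endoplasmic reticulum stress, and they phosphorylate c-Jun and other parts of the AP-1 transcription factor. In liver JNK is known for its activation in obesity and for restraint of the nuclear receptor PPARα, which binds fatty acids and turns on genes of fatty acid uptake, oxidation, ketone body production and the hormone FGF21. The acute phase genes, by contrast, are switched on in hepatocytes by interleukin 6 and interleukin 1 through STAT3 and NF-κB. Endoplasmic reticulum chaperone genes are switched on by unfolded proteins in the secretory pathway.

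Levels are FPKM, which divides fragments by transcript length and library size, so the absolute depth is unknown, and relative depth was 0.744, 0.511 and 0.672 of the deepest library in the Jnk2 libraries and 0.849, 0.58 and 0.554 in the control libraries. Pearson correlations of log2(FPKM + 1) over tested loci were 0.951 to 0.977 among the Jnk2 libraries, 0.958 to 0.97 among the control libraries and 0.944 to 0.961 between them. Jnk2 replicate 3 stood apart: on the first principal component of all 24 libraries (21.5% of the variance) the Jnk2 libraries lay at 20.0, 19.3 and 1.83, against -1.98, 12.4 and 1.82 for the controls. A score of circadian clock genes was 1.75, 1.48 and -2.35 in the Jnk2 libraries and -1.51, -0.50 and 0.69 in the controls, and with that score as a covariate 85 of the 86 genes named below as called kept the call. Each library's deviation from the locus means correlated with transcript length (Spearman rho across loci) at -0.13, -0.25 and 0.23 in the Jnk2 libraries. The controls gave 0.36, -0.055 and 0.22. With the length trend of each library removed, 85 of the 86 genes kept the call. What set Jnk2 replicate 3 apart was not tested. Albumin and 5 other loci with failed zeros were left out. Changes below are differences of log2(FPKM + 1), Jnk2 minus control, ± SE, and a call means an adjusted p (Benjamini-Hochberg) under 0.05 in a limma fit of all 24 libraries.

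Mapk9 (chr11:49846751-49886421, mm10), the targeted gene, measured 7.44, 6.58 and 7.79 FPKM in the Jnk2 libraries, against 11.8, 10.3 and 10.9 FPKM in the control libraries. No Jnk2 library reached a control library, and the mean stood at 65.9% of control. The fall was 0.54 ± 0.08 (adjusted p = 0.00037, and 0.073 in a fit of only these 6 libraries). On chow Mapk9 measured 6.89, 6.59 and 5.60 FPKM in Jnk2 and 9.83, 9.19 and 10.8 FPKM in control livers (-0.57, adjusted p = 0.004), a call lost with a circadian clock score as a covariate (adjusted p = 0.117) and in a fit of only the 6 chow libraries (0.0998). These values cover the whole locus, so fragments of exons that Cre leaves in place and of liver cells other than hepatocytes count too. Mapk8, the gene of the other JNK, measured 3.94, 3.38 and 4.84 FPKM in Jnk2 and 4.12, 4.56 and 4.19 FPKM in control livers, with overlapping libraries and a difference of -0.08 ± 0.11 (adjusted p = 0.69). Mapk10, the gene of the neuronal JNK3, was listed at 0 in the 3 Jnk2 libraries and at 0.00655, 0 and 0 FPKM in the controls. The upstream kinase genes gave differences of 0.05 ± 0.08 for Map2k4 (adjusted p = 0.75) and -0.05 ± 0.12 for Map2k7 (adjusted p = 0.82).

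**Figure D1:**
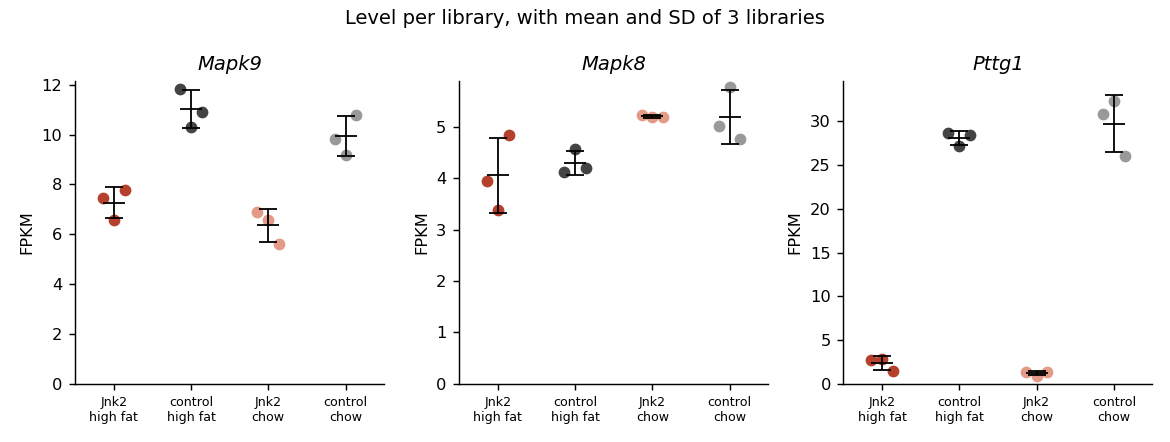
FPKM of Mapk9, Mapk8 and Pttg1 in each library of the Jnk2 and control groups on each diet, with the mean and SD of 3 libraries as bars. Mapk9 lies lower in the Jnk2 libraries than in the control libraries on each diet, Mapk8 overlaps on high fat, and Pttg1, on the same chromosome as Mapk9, stays under 3 FPKM in the 6 Jnk2 libraries.

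Of 10562 loci tested, 1311 (12.4%) were called between Jnk2 and control livers on high fat, 787 higher (7.45%) and 524 lower (4.96%). The median size of a called change was 0.504 on the log2 scale, and 61 rises and 57 falls exceeded 2-fold. A further count gives the loci whose Jnk2 and control libraries did not overlap in either direction, 2788 (26.4%), and 50 of the called loci did overlap. The median change of all tested loci was 0.02. The shares of 7.45% higher and 4.96% lower are the background of each list count of this comparison below. Among the gene lists, fat oxidation, lipid droplet, endothelial and collagen genes were called higher and 0 of them lower, and acute phase, complement and endoplasmic reticulum chaperone genes were called lower and 0 of them higher. The count depended on which libraries shared the estimate of spread: a fit of only these 6 libraries called 126 loci, 60 higher and 66 lower, and leaving out high fat control replicate 2 gave 855 loci, 391 higher and 464 lower. Of the 86 genes named below as called, 31 were also called with only the 6 libraries, and these are named in each paragraph.

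**Figure D2:**
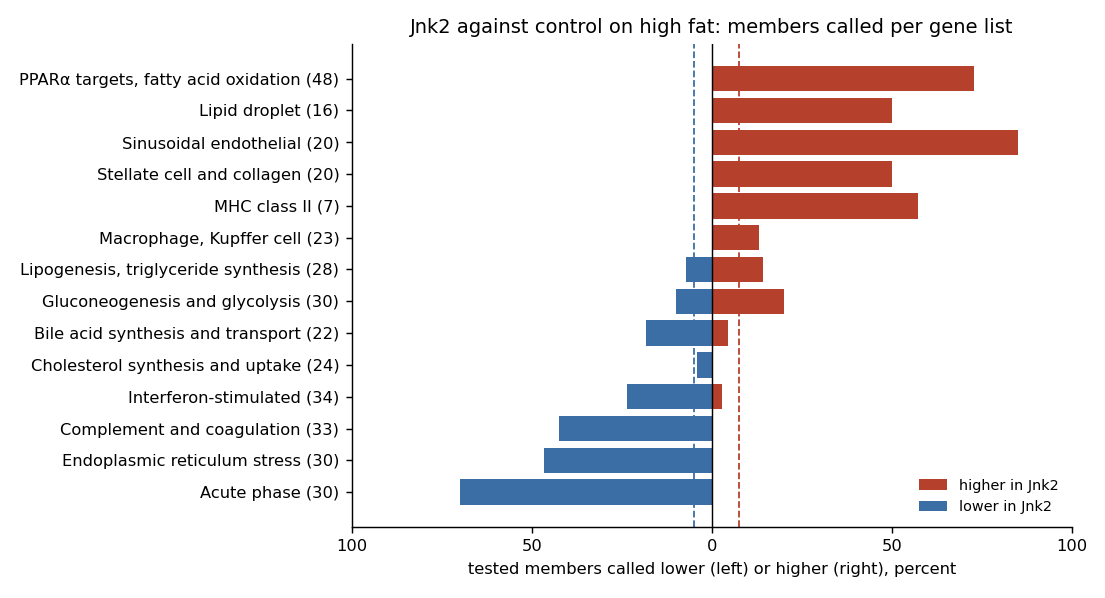
Percent of the tested members of 14 gene lists that were called higher (right) or lower (left) in Jnk2 than in control livers on high fat, with the number of tested members in parentheses. The dashed lines mark the share of all tested loci called in that direction, 7.45% higher and 4.96% lower.

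Genes that PPARα controls and genes of fatty acid oxidation were higher in Jnk2 livers: 35 of 48 tested loci rose and 0 fell, with a median change of 0.65, against 0.02 over all tested loci. All but 2 of the 48 changed upward in sign. The libraries of the groups did not overlap at any of the 35, but that held for all but 50 of the 1311 called loci, so it adds little to the calls. Acot1, a cytosolic thioesterase that frees fatty acids from coenzyme A, measured 90.7, 114 and 143 FPKM in the Jnk2 libraries, against 30.8, 23.3 and 29.3 FPKM in the control libraries, a rise of 2.01 ± 0.19 (adjusted p = 2.9e-06). Its mitochondrial neighbour Acot2 measured 19.8, 18.6 and 28.2 FPKM, against 7.51, 6.01 and 5.52 FPKM in control, a rise of 1.65 ± 0.15 (adjusted p = 2.2e-06). Every Jnk2 library lay above every control library at both genes, but Acot1 and Acot2 are near-identical copies, and how the authors split shared reads between them is not given in the sources used here.

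Enzymes of peroxisomal, microsomal and mitochondrial fatty acid oxidation rose. Aldh3a2, which oxidises fatty aldehydes, measured 449, 398 and 504 FPKM in Jnk2 livers and 209, 170.1 and 184 FPKM in control livers, a rise of 1.26 ± 0.11 (adjusted p = 9.5e-07). Acaa1b, a peroxisomal thiolase, measured 1244, 1316 and 1496 FPKM in Jnk2 livers and 624, 399 and 561 FPKM in control livers, a rise of 1.38 ± 0.15 (adjusted p = 1.1e-05). At both genes the lowest Jnk2 library lay well above the highest control library. Ehhadh, the peroxisomal bifunctional enzyme, measured 301, 442 and 1479 FPKM, against 159, 133 and 166 FPKM in control. Here Jnk2 replicate 3 was far above the other two, and the rise of 1.93 ± 0.35 (adjusted p = 0.0014) became 1.26 (adjusted p = 0.00052) without it. Cyp4a14, a microsomal omega-hydroxylase of fatty acids, measured 904, 1254 and 3312 FPKM in Jnk2 and 572, 276 and 686 FPKM in control livers, a rise of 1.70 ± 0.34 (adjusted p = 0.0028). The locus that holds Cyp4a10 with its near copy Cyp4a32 rose by 1.50 ± 0.23 (adjusted p = 0.00033). In mitochondria, the β-oxidation subunit Hadha rose by 0.66 ± 0.11 (adjusted p = 0.00076). The carnitine transporter Slc22a5 rose by 0.80 ± 0.14 (adjusted p = 0.0009). Cpt1a, the gate of fatty acid entry to mitochondria, rose by 0.72 ± 0.17 (adjusted p = 0.0084), or 0.46 without Jnk2 replicate 3. Creb3l3, a liver transcription factor that acts with PPARα, measured 200.3, 215 and 209 FPKM in Jnk2 and 142, 147 and 161 FPKM in control livers, a rise of 0.47 ± 0.07 (adjusted p = 0.00026). Outside the list, Gm15441, a noncoding locus antisense to Txnip whose reads cannot be told apart from those of its partner without strand, measured 10.1, 15.0 and 43.1 FPKM in Jnk2 and 1.77, 1.71 and 0.568 FPKM in control livers, a rise of 3.13 ± 0.35 (adjusted p = 1.4e-05).

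Several targets did not pass the test. Fgf21, the fasting hormone, measured 12.8, 13.6 and 68.2 FPKM in Jnk2 livers and 6.29, 10.4 and 15.4 FPKM in control livers. The Jnk2 range overlapped the control range, and the difference of 1.12 ± 0.44 was not called (adjusted p = 0.1). It was 0.35 without Jnk2 replicate 3, and was called without Jnk2 replicate 1 (1.52, adjusted p = 0.046) and with the clock score as a covariate. Ppara itself measured 49.7, 48.4 and 54.9 FPKM in Jnk2 and 49.4, 42.2 and 50.2 FPKM in control livers, a difference of 0.11 ± 0.11 (adjusted p = 0.56). Pdk4, a kinase that turns off glucose oxidation, differed by 1.19 ± 0.45 (adjusted p = 0.085) and Angptl4, a lipoprotein lipase inhibitor, by -0.04 ± 0.21 (adjusted p = 0.93). Pdk4 was called with the clock score as a covariate and without the high fat Jnk1Jnk2 group. Among the 35 called loci the highest Jnk2 library was replicate 3 at 26, yet 35 were called without that library. The lowest count was 29, without high fat control replicate 2. A fit of only the 6 libraries called 6 of the 48, among them Acot1, Acot2, Aldh3a2, Acaa1b and Mgll.

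**Figure D3:**
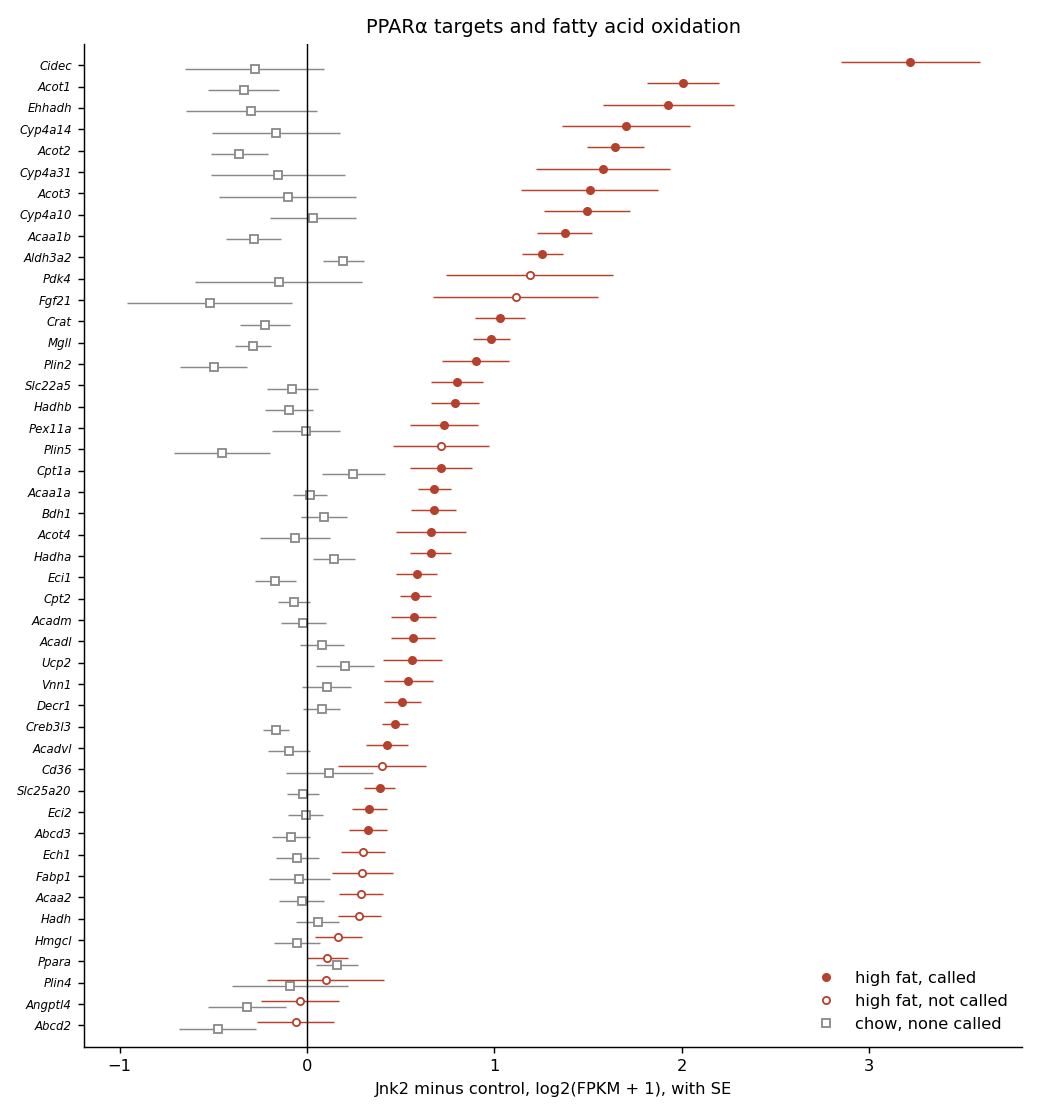
Change in log2(FPKM + 1), Jnk2 minus control, with its SE, of 46 of the 48 tested loci of the PPARα and fatty acid oxidation list, on high fat (circles, filled where called) and on chow (squares). On high fat 33 of the 46 drawn are called higher, led by Cidec at 3.22 and Acot1 at 2.01, and on chow 0 are called.

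PPARα binds, with RXR, a direct repeat of AGGTCA with 1 free base between the copies. On both strands of the 250 bases before RefSeq transcription starts (GRCm38.p6), matches with up to 2 mismatches were found in 3 of the 27 called loci with an entry and in 2 of 9 uncalled loci with an entry, against 3.24% of 32851 promoters. In each motif search a locus counted as matched if any of its RefSeq entries matched. The share over all promoters counts single sequences, so the units are unlike. The promoter of Plin2 (chr4:86670060-86670309, minus strand), a lipid droplet coat gene that rose, is shown with its match in capitals, since Plin2 is in both lipid lists. That match has 2 mismatches, both in the same copy of AGGTCA, so the full repeat is not present.

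Plin2: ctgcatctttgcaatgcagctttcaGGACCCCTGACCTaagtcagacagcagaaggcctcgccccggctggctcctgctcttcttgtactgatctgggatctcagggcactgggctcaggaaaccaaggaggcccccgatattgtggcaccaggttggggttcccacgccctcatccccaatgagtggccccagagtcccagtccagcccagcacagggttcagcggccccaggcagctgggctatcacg

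Lipid droplet genes were higher at 8 of 16 tested loci with 0 falling and a median change of 0.57. This list shares loci with the PPARα list, among them Cidec, Plin2 and Mgll, so the counts of these lists are not separate results. Cidec, which enlarges lipid droplets by fusing them, measured 52.9, 50.1 and 146 FPKM in Jnk2 livers and 14.5, 5.03 and 4.33 FPKM in control livers, a rise of 3.22 ± 0.37 (adjusted p = 2.1e-05). Jnk2 replicate 3 was the highest library, but the other two also lay over 3 times above the highest control. Plin2 measured 475, 474 and 884 FPKM in Jnk2 and 333, 328 and 280.0 FPKM in control livers, a rise of 0.90 ± 0.18 (adjusted p = 0.0027) that was 0.60 without Jnk2 replicate 3. Lipases that empty droplets were among the rises. Pnpla2 (ATGL), the first triglyceride lipase, measured 45.4, 49.1 and 91.5 FPKM in Jnk2 and 28.2, 22.3 and 31.2 FPKM in control livers, a rise of 1.10 ± 0.19 (adjusted p = 0.00082). Mgll, which splits monoglycerides, measured 145, 137 and 150.3 FPKM in Jnk2 and 73.4, 62.8 and 81.6 FPKM in control livers, a rise of 0.98 ± 0.10 (adjusted p = 3.5e-06). The adipocyte genes Adipoq and Plin1 did not exceed 0.871 and 0.438 FPKM in any of the 6 libraries. Of the 8 droplet loci, 1 was called with only the 6 libraries, Mgll.

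Among lipogenic genes 4 of 28 tested rose, 2 fell and 22 were not called, with a median change of 0.12. Of all tested loci 7.45% were called higher and 4.96% lower, and counts this small are not read as a result about the list. The rises numbered 1 without high fat control replicate 2. The 2 falls were enzymes of fatty acid synthesis. Fasn, fatty acid synthase, measured 4.57, 5.82 and 3.28 FPKM in Jnk2 and 9.92, 9.89 and 10.4 FPKM in control livers, a fall of 1.02 ± 0.18 (adjusted p = 0.0009). Acaca, acetyl-CoA carboxylase, measured 2.34, 2.43 and 3.09 FPKM in Jnk2 and 4.70, 4.81 and 5.93 FPKM in control livers, and fell by 0.76 ± 0.12 (adjusted p = 0.0003). Control libraries were higher without overlap at both. Fads2, the Δ6 desaturase of polyunsaturated fats, went the other way, at 231, 227 and 367 FPKM in Jnk2 and 124, 115 and 125 FPKM in control livers, a rise of 1.14 ± 0.19 (adjusted p = 0.0008). Pparg, the fat-storage receptor, rose by 0.73 ± 0.20 (adjusted p = 0.02), but the call was lost without Jnk2 replicate 1 or high fat control replicate 2 (adjusted p up to 0.12). Scd1, the stearoyl-CoA desaturase, measured 495, 307 and 25.5 FPKM in Jnk2 and 964, 398 and 597 FPKM in control livers, and the difference of -1.94 ± 0.73 was not called (adjusted p = 0.085). Srebf1, the driver of lipogenic transcription, measured 24.3, 26.0 and 8.08 FPKM in Jnk2 and 25.9, 24.0 and 39.6 FPKM in control livers (-0.71 ± 0.30, adjusted p = 0.13). At both genes Jnk2 replicate 3 was the lowest library by far. Without it the differences were -0.65 and -0.20, and Scd1 was called without Jnk2 replicate 1 (adjusted p = 0.022). Scd1 and Srebf1 were each called with the clock score as a covariate. No lipogenic call held with only the 6 libraries.

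Lipoprotein genes gave 1 rise and 3 falls among 23 tested. Apob, the structural protein of VLDL, measured 162, 164 and 209 FPKM in Jnk2 and 473, 370.3 and 369 FPKM in control livers, a fall of 1.18 ± 0.16 (adjusted p = 0.00011). Lrp1, a receptor for lipoprotein remnants, measured 29.1, 34.0 and 25.4 FPKM in Jnk2 and 94.9, 74.0 and 72.7 FPKM in control livers, a fall of 1.42 ± 0.16 (adjusted p = 1.4e-05). Abca1, which loads cholesterol onto HDL, fell by 0.78 ± 0.13 (adjusted p = 0.00064). At all 3 genes each Jnk2 library lay under each control library. These transcripts are long, and across tested loci the change fell with transcript length (Spearman rho -0.165 across genes, which are not independent replicates; the longest 10% had a median of -0.19). With the length trend of each library removed, Apob fell by 0.86, Lrp1 by 1.08, Abca1 by 0.54, Fasn by 0.78 and Acaca by 0.54, and all 5 stayed called. Apoa4, an apolipoprotein that rises with hepatic fat, measured 597, 494 and 2022 FPKM in Jnk2 and 281, 146 and 146 FPKM in control livers, a rise of 2.21 ± 0.41 (adjusted p = 0.0017). Its locus overlaps Gm10680, so reads of these loci cannot be separated. Apob and Lrp1 were also called with only the 6 libraries. Of 24 tested cholesterol synthesis and uptake genes 1 fell and 0 rose, with a median change of -0.45. That count was 0 without Jnk2 replicate 1 and 3 without Jnk2 replicate 2.

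Acute phase genes, the plasma proteins that hepatocytes secrete in inflammation, were lower in Jnk2 livers: 21 of 30 tested loci fell and 0 rose, with a median change of -0.81, and all 30 had a negative sign. Saa1, serum amyloid A, measured 187, 126 and 84.6 FPKM in the Jnk2 libraries and 1563, 1542 and 1212 FPKM in the control libraries, a fall of 3.50 ± 0.81 (adjusted p = 0.0078). The highest Jnk2 library lay 6 times or more under the lowest control library. Saa1 has the near copy Saa2, so its level is uncertain. Apcs, the pentraxin serum amyloid P, measured 57.6, 45.0 and 61.1 FPKM in Jnk2 and 172, 202 and 183 FPKM in control livers, a fall of 1.76 ± 0.27 (adjusted p = 0.00032). Orm1, orosomucoid, a carrier with near copies Orm2 and Orm3, measured 558, 481 and 426 FPKM in Jnk2 and 1192, 1739 and 1221 FPKM in control livers, a fall of 1.49 ± 0.26 (adjusted p = 0.00091). The 3 fibrinogen chains fell side by side, Fgg by 0.86 ± 0.16 (adjusted p = 0.0022), Fgb by 0.77 ± 0.15 (adjusted p = 0.0023) and Fga by 0.78 ± 0.17 (adjusted p = 0.0047). Itih4, a plasma protein, measured 548, 476 and 549 FPKM in Jnk2 and 984, 850.1 and 943 FPKM in control livers, a fall of 0.82 ± 0.19 (adjusted p = 0.0066). Outside the list, Fn1, fibronectin, which hepatocytes also secrete, measured 91.0, 95.3 and 106 FPKM in Jnk2 and 279, 232 and 221 FPKM in control livers, a fall of 1.31 ± 0.16 (adjusted p = 2.8e-05).

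Some acute phase calls rested on single libraries. Lcn2, lipocalin 2, a siderophore-binding protein, measured 80.8, 48.8 and 56.8 FPKM in Jnk2 and 323, 359 and 326 FPKM in control livers. Its fall of 2.44 ± 0.65 (adjusted p = 0.019) had an adjusted p up to 0.0596 without Jnk2 replicate 2 or high fat control replicate 2. Mt2, metallothionein 2, measured 99.8, 58.1 and 131 FPKM in Jnk2 and 256, 245 and 852 FPKM in control livers, where control replicate 3 stood high. Its fall of 2.03 ± 0.50 (adjusted p = 0.011) reached an adjusted p of 0.0553 without Jnk2 replicate 2 or high fat control replicate 3. The count of falls was 12 to 17 with each library left out, lowest without Jnk2 replicate 2, and 7 with only the 6 libraries. Those 7 include Saa1, Apcs, Orm1, Lcn2 and Itih4, and Fn1 was also called there. Prtn3, a serine protease of neutrophil granules, measured 0.730, 0.118 and 0.359 FPKM in Jnk2 and 11.6, 9.18 and 8.94 FPKM in control livers, a fall of 2.98 ± 0.44 (adjusted p = 0.00022) that was also called with only the 6 libraries. Of 10 neutrophil genes 4 were tested and 0 called. Their summed level was 17.7 to 26.6 FPKM in Jnk2 and 30.3 to 98.3 FPKM in control livers, highest in control replicate 2, and the part of neutrophils in the acute phase and Prtn3 results was not tested.

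STAT3 binds TTCNNNGAA. That motif, searched on both strands of the same windows, was found in 5 of the 18 called acute phase loci with an entry and in 1 of 7 uncalled ones, against 7.02% of all promoters. The Apcs promoter (chr1:172895055-172895304, minus strand) is given, with the match in capitals, as that of the fall with the smallest adjusted p among these genes.

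Apcs: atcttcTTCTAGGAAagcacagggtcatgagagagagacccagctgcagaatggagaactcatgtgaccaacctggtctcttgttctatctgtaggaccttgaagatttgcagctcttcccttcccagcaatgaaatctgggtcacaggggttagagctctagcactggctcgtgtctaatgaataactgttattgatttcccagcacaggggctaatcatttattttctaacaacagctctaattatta

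Complement and coagulation genes, made mostly by hepatocytes, also fell, at 14 of 33 tested loci with 0 rising and a median change of -0.35. C3, the central complement protein, measured 698, 692 and 894 FPKM in Jnk2 and 1541, 1252 and 1228 FPKM in control livers, a fall of 0.82 ± 0.19 (adjusted p = 0.0087). F5, coagulation factor V, fell by 0.75 ± 0.17 (adjusted p = 0.0055). Neither had overlapping groups. The count was 9 to 12 with each library left out, 9 without Jnk2 replicate 3 or high fat control replicate 3. With only the 6 libraries 1 locus was called. C4a and C4b share 1 locus and were counted once.

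**Figure D4:**
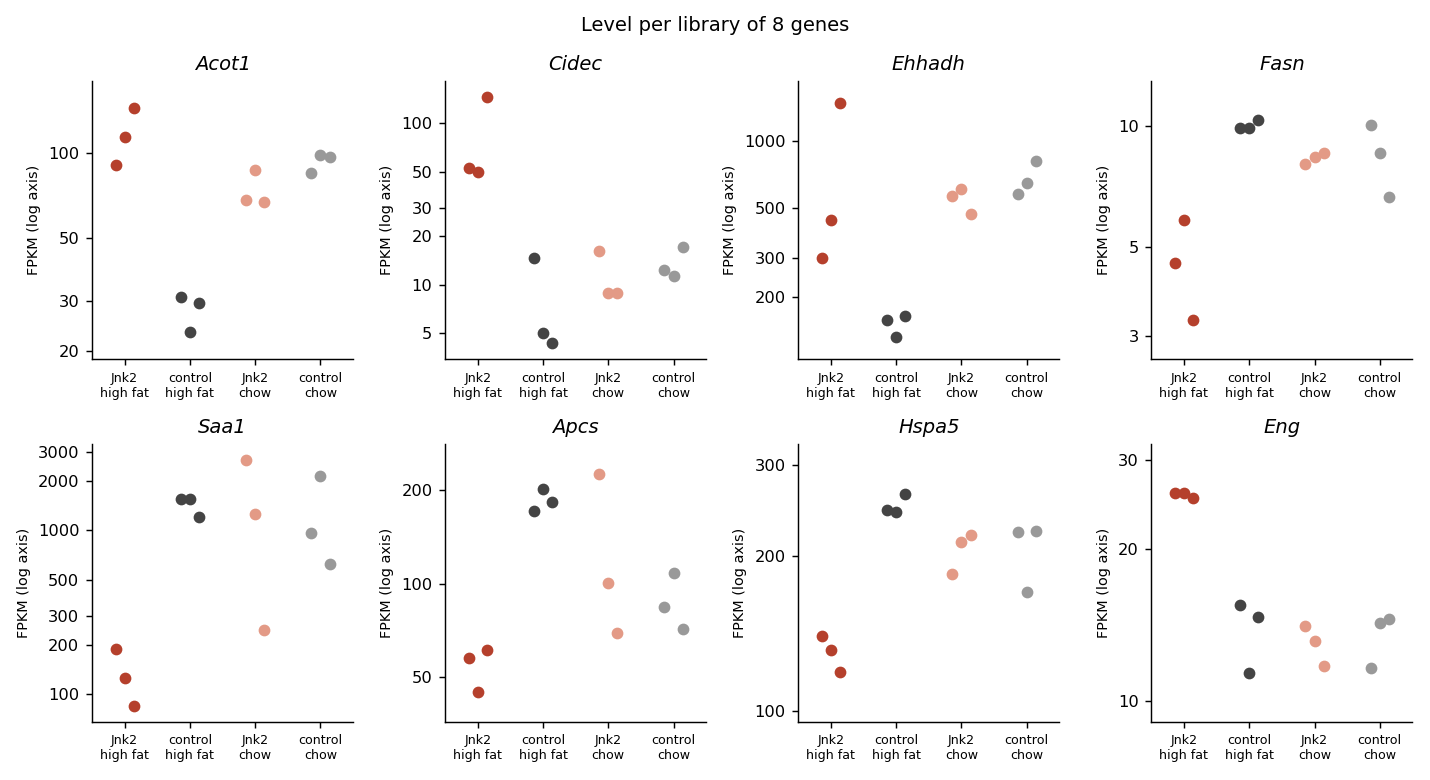
FPKM on a log axis of 8 genes in each library of the Jnk2 and control groups on high fat (left) and chow (right), 1 point per library. On high fat Acot1, Cidec, Ehhadh and Eng are higher and Fasn, Saa1, Apcs and Hspa5 lower in the 3 Jnk2 libraries than in the 3 control libraries, and on chow the groups overlap at all 8.

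Genes of the endoplasmic reticulum stress response fell: 14 of 30 tested loci were lower in Jnk2 livers and 0 higher, with a median change of -0.38. Hspa5 (BiP), the main chaperone of the compartment, measured 140.1, 131 and 119 FPKM in Jnk2 livers and 246, 244 and 264 FPKM in control livers, a fall of 0.95 ± 0.16 (adjusted p = 0.00084). Sdf2l1, a BiP cofactor, measured 8.46, 7.63 and 3.72 FPKM in Jnk2 and 16.3, 26.9 and 22.0 FPKM in control livers, a fall of 1.62 ± 0.25 (adjusted p = 0.00037). Hsp90b1 (GRP94) measured 160.1, 147 and 146 FPKM in Jnk2 and 207, 192 and 217 FPKM in control livers, a fall of 0.44 ± 0.09 (adjusted p = 0.0038). All 3 chaperone genes were lower in each Jnk2 library than in each control library. Ern1, which encodes the stress sensor IRE1α, measured 3.66, 3.49 and 4.15 FPKM in Jnk2 and 6.84, 6.29 and 6.87 FPKM in control livers, a fall of 0.69 ± 0.14 (adjusted p = 0.0029). Canx, a lectin chaperone of new glycoproteins, fell by 0.32 ± 0.08 (adjusted p = 0.012). The transcription factors of the response were not called: Xbp1 differed by 0.07 ± 0.19 (adjusted p = 0.85), Atf4 by 0.19 ± 0.13 (adjusted p = 0.34) and Ddit3 (CHOP) by -0.27 ± 0.22 (adjusted p = 0.44). At 12 of the 14 called loci Jnk2 replicate 3 was the lowest Jnk2 library. The count was 8 without it, 9 without high fat control replicate 3, and 2 with only the 6 libraries, Hspa5 and Ern1.

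These genes are known for the endoplasmic reticulum stress element in their promoters, CCAAT followed after 9 free bases by CCACG. It was found on either strand in 5 of the 12 called loci with an entry and in 4 of 15 uncalled ones, against 0.113% (37) of 32851 promoters. The promoters of Hspa5 (chr2:34771840-34772089, plus strand), Hsp90b1 (chr10:86705445-86705694, minus strand) and Canx (chr11:50325674-50325923, minus strand) carry it, in capitals, and are shown to compare its position in 3 genes that fell together. Hsp90b1 holds it on each strand.

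Hspa5: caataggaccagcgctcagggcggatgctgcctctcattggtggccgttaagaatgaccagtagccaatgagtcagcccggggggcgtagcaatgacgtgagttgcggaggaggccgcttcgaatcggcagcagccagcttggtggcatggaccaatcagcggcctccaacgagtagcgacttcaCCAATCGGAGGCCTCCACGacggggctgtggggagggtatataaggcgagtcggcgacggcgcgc
Hsp90b1: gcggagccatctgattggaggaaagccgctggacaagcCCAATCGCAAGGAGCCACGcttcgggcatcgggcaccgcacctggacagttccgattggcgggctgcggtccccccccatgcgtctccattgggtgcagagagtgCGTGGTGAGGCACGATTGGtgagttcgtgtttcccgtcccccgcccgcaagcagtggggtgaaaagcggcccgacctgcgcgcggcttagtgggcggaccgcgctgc
Canx: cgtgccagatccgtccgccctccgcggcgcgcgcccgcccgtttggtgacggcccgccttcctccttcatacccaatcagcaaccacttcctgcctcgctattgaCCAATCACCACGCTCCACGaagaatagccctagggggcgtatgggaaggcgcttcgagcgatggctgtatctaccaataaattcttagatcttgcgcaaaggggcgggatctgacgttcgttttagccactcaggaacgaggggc

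Interferon-stimulated genes were lower at 8 of 34 tested loci and higher at 1. Ifi47, an interferon-induced GTPase whose locus also holds Olfr56, measured 11.3, 12.5 and 11.2 FPKM in Jnk2 and 20.7, 31.3 and 20.3 FPKM in control livers, a fall of 0.96 ± 0.20 (adjusted p = 0.0045). Iigp1, another GTPase of this family, fell by 0.58 ± 0.11 (adjusted p = 0.0025). The rise was Isg20, a ribonuclease, at 0.55 ± 0.17 (adjusted p = 0.036). Its call was lost without Jnk2 replicates 1 or 3 or any single control library (adjusted p up to 0.139). The falls counted 4 to 9 with each library left out, 4 without Jnk2 replicate 3 or high fat control replicate 2, and 0 with only the 6 libraries.

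Markers of several cell types other than hepatocytes were tested next. In bulk liver, a change in the number of cells of a type and a change in RNA per cell cannot be told apart. Sinusoidal endothelial genes rose at 17 of 20 tested loci, with 0 falling and a median change of 0.58, and all 20 had a positive sign. Eng, endoglin, a TGFβ co-receptor, measured 25.9, 25.8 and 25.3 FPKM in Jnk2 and 15.5, 11.4 and 14.7 FPKM in control livers, a rise of 0.85 ± 0.10 (adjusted p = 2.1e-05). Dnase1l3, a secreted nuclease, measured 16.6, 18.1 and 17.5 FPKM in Jnk2 and 10.9, 9.39 and 9.07 FPKM in control livers, a rise of 0.77 ± 0.10 (adjusted p = 4.8e-05). Oit3 measured 10.7, 10.7 and 11.8 FPKM in Jnk2 and 5.60, 4.12 and 5.62 FPKM in control livers, a rise of 0.99 ± 0.13 (adjusted p = 7.2e-05). The Jnk2 libraries lay close together at these genes and above every control. Pecam1, the endothelial adhesion molecule CD31, rose by 0.62 ± 0.11 (adjusted p = 0.00096). The defining markers Stab2, Clec4g and Lyve1 gave calls that depended on the setting or the libraries. Stab2, a scavenger receptor, differed by 0.11 ± 0.09 (adjusted p = 0.47, and 0.28 with adjusted p = 0.02 after removal of the length trend). Clec4g rose by 0.47 ± 0.12 (adjusted p = 0.013) and Lyve1, a hyaluronan receptor, by 1.05 ± 0.30 (adjusted p = 0.028). Clec4g lost its call without Jnk2 replicate 2 or high fat control replicate 1 (adjusted p up to 0.0843), and Lyve1 without Jnk2 replicates 1 or 3 or high fat control replicates 1 or 2 (up to 0.115). The summed level of 22 endothelial genes was 235 to 250.1 FPKM in Jnk2 and 143.4 to 159.8 FPKM in control livers. The count of rises was 11 without high fat control replicate 2 and 3 with only the 6 libraries, Eng, Dnase1l3 and Oit3.

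Stellate cell and collagen genes rose at 10 of 20 tested loci, with 0 falling and a median change of 0.53. Col1a1, the main fibrillar collagen, measured 5.61, 3.96 and 6.11 FPKM in Jnk2 and 2.67, 0.797 and 1.31 FPKM in control livers, a rise of 1.31 ± 0.29 (adjusted p = 0.0061). Bgn, a matrix proteoglycan, measured 56.1, 47.0 and 59.3 FPKM in Jnk2 and 30.6, 21.9 and 33.8 FPKM in control livers, a rise of 0.90 ± 0.16 (adjusted p = 0.0014). Vim, the mesenchymal filament vimentin, rose by 1.01 ± 0.20 (adjusted p = 0.0025) and Sparc, a collagen-binding protein, by 0.84 ± 0.16 (adjusted p = 0.0024). Each Jnk2 library lay above each control library at these 4 genes, while genes that define resting stellate cells did not pass the test. Lrat, which stores retinol, measured 2.96, 2.79 and 2.65 FPKM in Jnk2 and 2.16, 2.46 and 2.98 FPKM in control livers (0.11 ± 0.11, adjusted p = 0.55), and Reln differed by 0.02 ± 0.16 (adjusted p = 0.96). The summed level of 26 genes was 257 to 336 FPKM in Jnk2 and 165 to 218 FPKM in control livers. The count was 5 without high fat control replicate 2, 6 without Jnk2 replicate 1 or 3, and 2 with only the 6 libraries, Vim and Sparc. Tgfb1, the cytokine that drives matrix production, measured 6.89, 7.27 and 9.08 FPKM in Jnk2 and 3.99, 3.70 and 4.43 FPKM in control livers, a rise of 0.79 ± 0.16 (adjusted p = 0.0039).

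Macrophage genes rose at 3 of 23 tested loci, with 0 falling and a median change of 0.16, against 7.45% of all tested loci called higher. A count this small is not read as a result about the list. It was 0 without Jnk2 replicate 1, without Jnk2 replicate 3 or without high fat control replicate 2. The 3 were Gpnmb, Lgals3 and Cd68. Gpnmb, a membrane glycoprotein, measured 4.49, 2.47 and 7.66 FPKM in Jnk2 and 0.609, 0.172 and 0.198 FPKM in control livers, a rise of 2.06 ± 0.57 (adjusted p = 0.022). Lgals3, the lectin galectin 3, measured 15.3, 9.89 and 14.1 FPKM in Jnk2 and 4.93, 5.81 and 5.91 FPKM in control livers, a rise of 1.09 ± 0.34 (adjusted p = 0.044). Cd68, a lysosomal protein, measured 15.9, 13.2 and 19.1 FPKM in Jnk2 and 9.53, 9.37 and 9.34 FPKM in control livers, a rise of 0.70 ± 0.19 (adjusted p = 0.02). The groups did not overlap at any of the 3, yet every call depended on single libraries. Gpnmb lost it without Jnk2 replicates 1 or 3 or high fat control replicates 2 or 3 (adjusted p up to 0.0821), Cd68 without Jnk2 replicates 1 or 3 or control replicates 1 or 2 (up to 0.0781), and Lgals3 without Jnk2 replicates 1 or 3 or any control library (up to 0.127). Gpnmb and Lgals3 were called with only the 6 libraries. Markers of resident Kupffer cells overlapped: Clec4f measured 39.8, 51.5 and 52.9 FPKM in Jnk2 and 45.2, 51.5 and 52.0 FPKM in control livers, and Csf1r differed by 0.13 ± 0.21 (adjusted p = 0.72). MHC class II genes rose at 4 of 7 tested loci. Cd74, the invariant chain, measured 96.4, 111 and 144 FPKM in Jnk2 and 54.7, 64.8 and 68.9 FPKM in control livers, a rise of 0.87 ± 0.17 (adjusted p = 0.0025). H2-Aa rose by 0.72 ± 0.20 (adjusted p = 0.024), a call lost without Jnk2 replicate 3 or high fat control replicate 1 (adjusted p up to 0.117), and the count of the list was then 1. Cholangiocyte genes rose at 2 of 7 tested loci, 1 of them Krt23. Krt23, a keratin, measured 11.0, 8.64 and 11.2 FPKM in Jnk2 and 1.35, 1.15 and 1.63 FPKM in control livers, a rise of 2.25 ± 0.30 (adjusted p = 7.3e-05). Outside the list, Lamb3, a laminin chain of epithelia, measured 10.1, 9.97 and 16.1 FPKM in Jnk2 and 3.53, 2.32 and 2.84 FPKM in control livers, a rise of 1.72 ± 0.17 (adjusted p = 3.5e-06). Both were also called with only the 6 libraries, while Krt19 and Epcam, which define bile duct cells, did not exceed 2.21 and 0.826 FPKM and were not tested. The hepatocyte list, at 2 rises and 2 falls among 20 tested loci, summed to 57633 to 67970 FPKM in Jnk2 and 55829 to 61183 FPKM in control livers. The part of cell composition in these results was not tested.

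**Figure D5:**
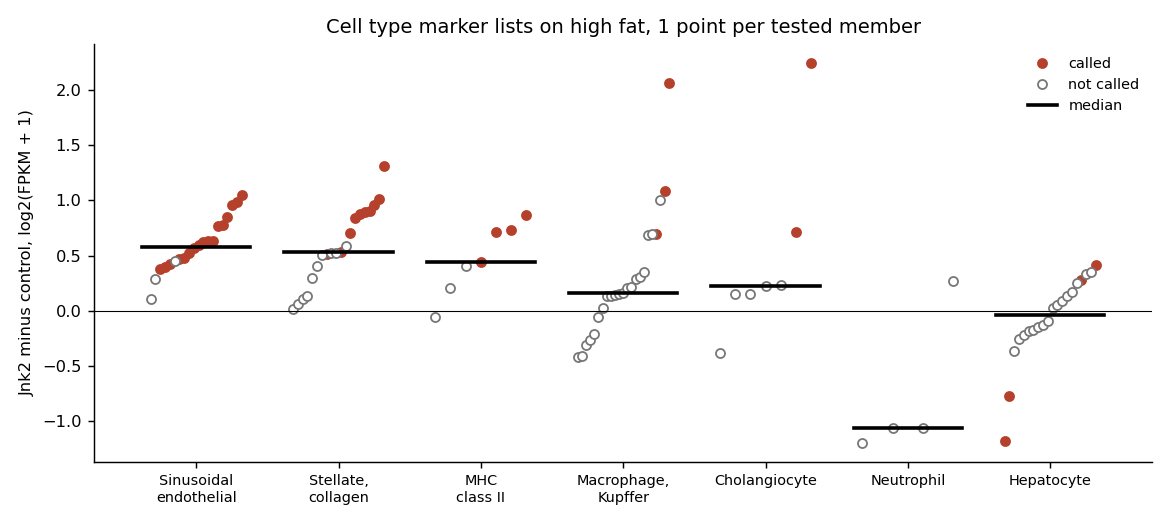
Change in log2(FPKM + 1), Jnk2 minus control on high fat, of each tested member of 7 cell type marker lists, filled where called, with the list median as a line. The medians are 0.58 for sinusoidal endothelial and 0.53 for stellate and collagen genes, against 0.16 for macrophage and -0.04 for hepatocyte genes.

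Glucose genes gave 6 rises and 3 falls among 30 tested. Glycogen genes were called in both directions. Gys2, liver glycogen synthase, measured 71.7, 75.7 and 139 FPKM in Jnk2 and 40.6, 38.7 and 57.6 FPKM in control livers, a rise of 1.00 ± 0.24 (adjusted p = 0.0096). Pygl, glycogen phosphorylase, measured 88.1, 75.6 and 48.5 FPKM in Jnk2 and 109, 96.5 and 113 FPKM in control livers, a fall of 0.62 ± 0.14 (adjusted p = 0.0079) that was 0.38 without Jnk2 replicate 3. Ppp1r3c, a glycogen-targeting phosphatase subunit, measured 8.30, 10.1 and 7.36 FPKM in Jnk2 and 22.5, 19.1 and 27.8 FPKM in control livers, a fall of 1.33 ± 0.26 (adjusted p = 0.0023). It was also called with only the 6 libraries. Gapdh, a glycolytic enzyme often used as a reference gene, rose by 0.42 ± 0.08 (adjusted p = 0.0028). Pck1 and G6pc, the rate-setting genes of gluconeogenesis, differed by -0.01 ± 0.23 (adjusted p = 0.99) and 0.04 ± 0.23 (adjusted p = 0.94). The rises numbered 3 without Jnk2 replicate 1 or high fat control replicate 2, and 0 with only the 6 libraries. Insr, the insulin receptor, measured 10.9, 10.5 and 15.0 FPKM in Jnk2 and 21.1, 16.7 and 19.9 FPKM in control livers, a fall of 0.64 ± 0.15 (adjusted p = 0.0084) that was 0.42 with the length trend removed. Igfbp2, an IGF-binding plasma protein, measured 272, 536 and 1129 FPKM in Jnk2 and 192, 212 and 299 FPKM in control livers, with 1 Jnk2 library inside the control range. Its rise of 1.25 ± 0.30 (adjusted p = 0.01) was 0.73 without Jnk2 replicate 3.

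Bile acid genes gave 1 rise and 4 falls among 22 tested. Abcb11, the bile salt export pump, measured 37.7, 34.0 and 32.8 FPKM in Jnk2 and 76.1, 61.2 and 64.8 FPKM in control livers, a fall of 0.93 ± 0.10 (adjusted p = 1.4e-05), also called with only the 6 libraries. Baat, which conjugates bile acids, fell by 0.46 ± 0.10 (adjusted p = 0.0039). The rise was Cyp8b1, the sterol 12α-hydroxylase, at 211, 326 and 539.8 FPKM in Jnk2 and 201, 152 and 137 FPKM in control livers. That rise of 1.04 ± 0.27 (adjusted p = 0.016) lost its call without Jnk2 replicate 3 or high fat control replicates 2 or 3 (adjusted p up to 0.0814). Cyp7a1, the enzyme that opens the classical bile acid pathway, measured 19.2, 22.1 and 25.2 FPKM in Jnk2 and 42.8, 52.7 and 42.2 FPKM in control livers. The groups did not overlap, but the difference of -1.02 ± 0.34 was not called (adjusted p = 0.056). It was called with only the 6 libraries (0.038), with size factors (0.049) and with the length trend removed (0.044). Quantile normalization and array weights gave a call too.

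Of 21 tested iron and metal genes 3 rose and 5 fell, the falls numbering 1 without Jnk2 replicate 2. Fth1, the ferritin heavy chain, measured 1703, 1542 and 1511 FPKM in Jnk2 and 1026, 999 and 1093 FPKM in control livers, a rise of 0.61 ± 0.09 (adjusted p = 0.00033). Tfrc, the transferrin receptor, rose beside it by 0.73 ± 0.13 (adjusted p = 0.00094), and Tfrc was called with only the 6 libraries too. Slc30a10, a manganese exporter, measured 2.28, 2.70 and 2.50 FPKM in Jnk2 and 6.92, 4.20 and 5.43 FPKM in control livers, a fall of 0.88 ± 0.12 (adjusted p = 0.00016). It fell on chow as well, at 3.64, 3.59 and 3.12 FPKM in Jnk2 and 7.74, 6.36 and 6.87 FPKM in control livers (-0.84, adjusted p = 0.004), a call lost with the clock score as a covariate (adjusted p = 0.107) and with only the 6 chow libraries (0.0748).

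AP-1 and immediate early genes were higher at 4 of 17 tested loci and lower at 0. Jun, the JNK substrate gene, measured 8.22, 8.56 and 9.40 FPKM in Jnk2 and 7.04, 4.83 and 5.30 FPKM in control livers, a difference of 0.54 ± 0.27 that was not called (adjusted p = 0.2), and Jund differed by 0.25 ± 0.16 (adjusted p = 0.31). Myc, a growth transcription factor, measured 6.99, 4.34 and 3.33 FPKM in Jnk2 and 0.879, 1.03 and 1.70 FPKM in control livers, a rise of 1.39 ± 0.24 (adjusted p = 0.0009). Ier3, an early response gene, rose by 0.74 ± 0.15 (adjusted p = 0.0028) and was called with only the 6 libraries. Maff and Klf6, transcription factors of the stress response, rose by 1.11 ± 0.31 and 0.59 ± 0.17 (adjusted p = 0.026 for each). Maff lost its call without Jnk2 replicates 1 or 2 or high fat control replicates 1 or 2 (adjusted p up to 0.114), and Klf6 without Jnk2 replicates 1 or 3 or control replicates 1 or 3 (up to 0.118). Of 22 tested loci of the JNK cascade and its scaffolds 3 rose and 1, Mapk9, fell. Of all tested loci 7.45% were called higher and 4.96% lower. The rises were the JNK phosphatase Dusp10 (0.48 ± 0.14, adjusted p = 0.025), the upstream kinase Map3k5 (ASK1; 0.45 ± 0.14, adjusted p = 0.04) and the ERK1 gene Mapk3 (0.39 ± 0.12, adjusted p = 0.04). All 3 calls were lost without Jnk2 replicate 1 or high fat control replicate 2, with adjusted p up to 0.0964, 0.196 and 0.196, and Dusp10 and Map3k5 also without Jnk2 replicate 3, Mapk3 without Jnk2 replicate 2, and Dusp10 and Mapk3 without control replicate 1.

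The same genotypes were also compared on chow. Between Jnk2 and control livers on chow 48 of 10562 loci (0.454%) were called, 11 higher (0.104%) and 37 lower (0.35%). Loci with an unadjusted p below 0.05 numbered 2922 on high fat and 1390 on chow. The count was 25 with size factors, 5 with the clock score as a covariate, 2 with only the 6 chow libraries and 6 to 27 with each of the 6 chow libraries left out, 6 without Jnk2 replicate 3 or control replicate 1. No member of the PPARα, lipid droplet, acute phase, complement, endoplasmic reticulum, endothelial or stellate lists was called there, and their medians were -0.07 for the PPARα list, 0.24 for acute phase and 0.00 for endoplasmic reticulum genes, against -0.04 for all tested loci. Acot1, for example, measured 68.0, 87.1 and 66.8 FPKM in chow Jnk2 and 84.7, 98.5 and 96.8 FPKM in chow control livers (-0.34, adjusted p = 0.47). Jund, called lower on chow (-0.92, adjusted p = 0.011), lost the call without chow Jnk2 replicates 2 or 3 or chow control replicate 1 (adjusted p up to 0.0825) and with the clock covariate.

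The diet dependence was tested as an interaction, the Jnk2 effect on high fat less that on chow. It called 1005 loci (9.52%), 653 higher (6.18%) and 352 lower (3.33%), or 556 and 511 with size factors, 662 and 587 with quantile normalization, and the unadjusted p was below 0.05 at 2837 loci. It called 509 loci without chow Jnk2 replicate 3, 569 without high fat control replicate 2, 640 without chow control replicate 2 and 631 without chow control replicate 3. Among the lists the interaction was higher at 25 of 48 PPARα loci, 10 of 20 endothelial and 8 of 20 stellate loci, with 0 lower in each, and lower at 19 of 30 acute phase, 10 of 33 complement and 7 of 30 endoplasmic reticulum loci, with 0 higher in each. With the clock covariate, which left 631 calls, those numbers were 19, 7 and 2 higher and 16, 6 and 3 lower. The stellate count was 2 to 5 without any 1 of high fat Jnk2 replicates 1 and 3, high fat control replicate 2, chow Jnk2 replicates 2 and 3 and chow control replicates 2 and 3. The acute phase count was 12 without chow Jnk2 replicate 1, and the endoplasmic reticulum count 4 without chow Jnk2 replicate 2 or chow control replicate 2 and 12 with size factors. Acot1 gave 2.34 ± 0.27 (adjusted p = 0.00014), Fn1 -1.77 ± 0.22 (adjusted p = 0.00016) and Lamb3 1.97 ± 0.24 (adjusted p = 0.00016), so the effect at each differed between diets by more than the spread of the libraries. Saa1 spread widely on chow, at 2703, 1257 and 246 FPKM in Jnk2 and 956, 2137 and 618 FPKM in control livers, and its interaction of -3.30 ± 1.14 was not called (adjusted p = 0.072). Of the 1311 loci called on high fat, 683 were also called in the interaction. The interaction contains the high fat comparison and its libraries, so an overlap was likely from the start. Neither this overlap nor the list counts of the interaction are separate support for the high fat calls. In all, 5 loci were called in the same direction on both diets, Mapk9, Pttg1, Hist1h2ba, Slc30a10 and Timd2, and 7 in opposite directions. Of those 5, Pttg1 and Hist1h2ba kept the chow call with the clock covariate.

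Timd2 and Pttg1 lie near Mapk9 on chromosome 11. Pttg1 (chr11:43420248-43426248), securin, which holds sister chromatids together, measured 2.74, 2.88 and 1.46 FPKM in Jnk2 and 28.7, 27.1 and 28.4 FPKM in control livers on high fat, a fall of 3.14 ± 0.18 (adjusted p = 1.6e-09). On chow it measured 1.31, 0.930 and 1.32 FPKM in Jnk2 and 30.9, 32.3 and 26.1 FPKM in control livers (-3.81, adjusted p = 4.5e-11). The 6 Jnk2 libraries lay under 3 FPKM and the 6 controls above 26 FPKM. Within 10 Mb of Mapk9, 17 of 110 tested loci were called on high fat, 9 higher and 8 lower, against 12.4% of all loci. The count was 3 with only the 6 libraries, 9 without high fat control replicate 2 and 11 without Jnk2 replicate 1. Timd2, a receptor that binds ferritin in mice, measured 23.5, 22.7 and 16.4 FPKM in Jnk2 and 15.0, 15.6 and 16.5 FPKM in control livers. The groups overlapped, since Jnk2 replicate 3 lay under 1 control library. Timd2 rose by 0.38 ± 0.11 (adjusted p = 0.03), a call lost without Jnk2 replicates 1 or 2 or high fat control replicates 1 or 2 (adjusted p up to 0.133) and, on chow, without any single library (up to 0.233). Hist1h2ba (chr13:23933773-23934156), a histone H2B gene of germ cells, measured 13.1, 16.0 and 16.2 FPKM in Jnk2 livers and was listed at 0 in the 3 controls on high fat (adjusted p = 1.5e-07). On chow it measured 5.67, 13.8 and 10.6 FPKM in Jnk2 and 0, 0.387 and 0 FPKM in control livers. It was at 4.20, 10.4 and 8.61 FPKM in the high fat Jnk1 livers. Pttg1 and Hist1h2ba were called with only the 6 libraries.

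Against livers lacking JNK1 on the same diet, a comparison that shares the 3 Jnk2 libraries, 1527 of 10562 loci (14.5%) were called in Jnk2 livers, 797 higher (7.55%) and 730 lower (6.91%). The count was 713 without Jnk1 replicate 1, 958 without Jnk1 replicate 2 and 546 with only the 6 libraries compared. The clock score was 1.75, 1.48 and -2.35 in the Jnk2 and 2.68, 2.41 and 2.76 in the Jnk1 libraries, and with it as a covariate 715 loci were called, 302 higher and 413 lower. Jnk2 livers were higher at 31 of 48 PPARα loci and lower at 1, lower at 14 of 30 acute phase loci, and higher at 10 of 20 endothelial and 9 of 20 stellate loci. Those counts were 19, 0, 10, 6 and 2 with the clock covariate and 15, 0, 7, 3 and 4 with only the 6 libraries. The acute phase count was 8 without Jnk1 replicate 2 and 9 without Jnk2 replicate 2 or Jnk1 replicate 3. Endothelial loci numbered 4 without Jnk1 replicate 1 and 5 without Jnk2 replicate 1, and stellate loci 2 to 5 without Jnk2 replicates 1 or 3 or Jnk1 replicates 1 or 2. Acot1 measured 90.7, 114 and 143 FPKM in Jnk2 livers, against 39, 38.7 and 27.3 FPKM in Jnk1 livers (1.69, adjusted p = 2.6e-05), and was at 85.4, 122 and 89.7 FPKM in the livers lacking both. Cidec measured 52.9, 50.1 and 146 FPKM in Jnk2, against 13.8, 10.9 and 13.0 FPKM in Jnk1 livers (2.45, adjusted p = 0.00031), and 57.8, 54.8 and 64.4 FPKM in Jnk1Jnk2 livers. Fgf21 measured 12.8, 13.6 and 68.2 FPKM in Jnk2, against 5.05, 7.78 and 4.48 FPKM in Jnk1 livers (1.86, adjusted p = 0.0083). That difference was 1.10 without Jnk2 replicate 3 (adjusted p = 0.03), and it was not called with the clock covariate (1.15, adjusted p = 0.118) or with only the 6 libraries (adjusted p = 0.137). Of the cholesterol synthesis and uptake list, 21 of 24 loci were lower and 0 higher in Jnk2 than in Jnk1 livers. The median change of that list was -1.01, and 12 were called lower with the clock covariate and 6 with only the 6 libraries. Saa1 measured 442, 900 and 370 FPKM in Jnk1 livers, and the difference of Jnk2 from Jnk1 was not called (-2.06, adjusted p = 0.095).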

How the data were processed

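Liver RNA was prepared with an RNeasy kit from samples with a RIN above 9, per the labels' protocols. The authors deposited FPKM per locus for 24 libraries, made with TopHat, Cufflinks and Cuffdiff on mm10, per the submitters' processing notes; versions and strand settings are not given in the sources used here. FPKM holds no read counts, so a count model could not be used and depth is unknown. Values were taken as log2(FPKM + 1), loci with a mean of at least 1 FPKM over the 24 libraries were kept, and 1 mean per group was fitted with limma 3.58.1 (trend option; R 4.3.3), with Benjamini-Hochberg adjustment over 10562 loci and a threshold of 0.05. A fold change on this scale understates the change of low loci. The fit had 16 residual degrees of freedom. An exact two-sided permutation test of 3 against 3 libraries cannot go below 0.1. Expressed loci (median 10 FPKM or more) that spanned at least 500 bases and had a library at 0 were left out as failed estimates (6 loci, 18 values at 0). The fit was tested on simulated data. Tables and figures used Python 3.11.15, pandas 2.3.3, numpy 2.4.6 and matplotlib 3.10.9. The comparison, its members and the gene lists were chosen with earlier results of these data known. Named genes were drawn from a rule: JNK pathway genes, Fgf21 and Ppara, the 15 largest rises and falls without overlap, up to 4 called members per list by smallest p, called loci within 10 Mb of Mapk9, and up to 10 loci by smallest p in the interaction and against Jnk1. The text gives part of these, and 31 further genes were chosen after their values were seen. A few genes are not reported here. Locus starts are 1-based. Promoter sequences are RefSeq's, on GRCm38.p6. Alternatives were other pseudocounts, no filter, size factors, quantile normalization, array weights, a replicate block, fits of the groups compared alone or without the Jnk1Jnk2 high fat group, removal of the length trend, a clock covariate, and leaving out each library.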

Additional observations from a re-analysis of the deposited data

Results flagged for a closer look

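The Jnk2 effect on high fat less that on chow was called by the limma interaction term for 61 of the genes above, 35 positive and 26 negative, and the values below are those differences of log2(FPKM + 1) changes. Most of these genes were also called on high fat, in libraries that the interaction shares. The interaction calls are therefore not independent of the high fat calls. Among genes of fat oxidation and its regulation they were Gm15441 3.39, Acot1 2.34, Ehhadh 2.23, Acot2 2.01, Cyp4a14 1.87, Acaa1b 1.66, Cyp4a10 1.46, Aldh3a2 1.06, Slc22a5 0.88, Creb3l3 0.64 and Hadha 0.51. Lipid droplet, lipogenic and lipoprotein genes gave Cidec 3.50, Apoa4 2.23, Plin2 1.40, Mgll 1.27, Pnpla2 1.06, Fads2 0.88, Acaca -0.89, Abca1 -0.86, Fasn -1.02, Apob -1.39 and Lrp1 -1.60. Plasma protein and acute phase genes, with the neutrophil protease Prtn3, gave Igfbp2 1.59, Fgb -0.98, Fgg -1.0, Fga -1.10, F5 -1.17, C3 -1.18, Itih4 -1.33, Orm1 -1.65, Fn1 -1.77, Apcs -2.17, Mt2 -2.77, Lcn2 -3.21 and Prtn3 -4.09. Chaperone genes gave Canx -0.38, Hsp90b1 -0.66, Hspa5 -0.95 and Sdf2l1 -1.59. Endothelial and matrix genes gave Dnase1l3 0.59, Pecam1 0.62, Tgfb1 0.80, Oit3 0.86, Sparc 0.90, Eng 0.90, Vim 1.00, Bgn 1.01 and Col1a1 1.49. The remaining genes gave Gapdh 0.48, Dusp10 0.65, Fth1 0.73, Ier3 0.79, Jund 1.17, Myc 1.33, Lamb3 1.97, Krt23 2.94, Abcb11 -0.60, Iigp1 -0.71, Insr -0.77, Ifi47 -0.94 and Cyp7a1 -1.85. The call was lost without at least 1 of the 12 libraries in it, with adjusted p up to 0.136, for 19 of the 61, namely Apoa4, Canx, Col1a1, Cyp4a14, Cyp7a1, Dusp10, Fads2, Hadha, Ier3, Ifi47, Igfbp2, Insr, Lcn2, Myc, Pecam1, Pnpla2, Sparc, Tgfb1 and Vim. Of the other genes, Fasn lost the call with the length trend removed (adjusted p = 0.066) and with the clock score as a covariate (0.053), Gapdh with the length trend removed (0.066) and Hspa5 with the clock covariate (0.053). A fit of only the 4 groups compared also ended the call of Abcb11 (adjusted p = 0.054), Cyp4a10 (0.053), Ehhadh (0.065) and Gapdh (0.058). Over all 61 genes the call was lost for 18 with the clock covariate, 14 with only the 4 groups and 5 with the length trend removed.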

How the results depend on the processing

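None of the 86 named genes called on high fat reversed its direction under any alternative run. These genes were chosen by their calls in the same libraries, so a reversal was unlikely from the start. With only the 6 libraries 55 of the 86 lost the call. Of the named genes not called on high fat, 10 took both signs: Angptl4, Clec4f, Csf1r, G6pc, Map2k4, Map2k7, Mapk8, Pck1, Reln and Xbp1. With array weights the calls numbered 2824 on high fat, 466 on chow, 2375 for the interaction, 3861 against Jnk1 and 32 near Mapk9. Fits of only the groups compared called 126, 2, 655, 546 and 3 in the same order. Leaving out 1 library gave 855 to 1408 on high fat, 6 to 27 on chow, 509 to 1337 for the interaction, 713 to 1249 against Jnk1 and 9 to 16 near Mapk9. The clock score as a covariate gave 5 on chow, 631 for the interaction and 715 against Jnk1 (302 higher and 413 lower). The chow count was also 31 with a pseudocount of 0.1, 25 without a filter, 25 with size factors and 26 without the Jnk1Jnk2 high fat group. The causes were not tested, except that fits of fewer groups have fewer libraries. Of the 86 named genes called on high fat, 69 kept the call without each library in turn. Replicate numbers were not used to pair libraries in the main fit. Same-number deviations correlated at 0.008, 0.068 and 0.054 on high fat, where the highest values for other numbers were 0.013, -0.013 and 0.003. On chow the same-number values were -0.153, -0.077 and -0.26. Whether libraries of the same number share a batch was not tested. A replicate block gave 1271 calls on high fat, 20 on chow, 924 for the interaction, 1476 against Jnk1 and 17 near Mapk9. Of calls on high fat, 1276 were shared with size factors, 1027 with the length trend removed and 121 with only the 6 libraries. Without read counts, the depth behind low values is unknown.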

Other observations

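Hba-a2, an α-globin gene with a near-identical copy, measured 170.4, 147 and 87.6 FPKM in Jnk2 and 59.2, 62.0 and 27.4 FPKM in control livers on high fat, a rise of 1.46 (limma, adjusted p = 0.0039). It was the 1 called locus of 4 tested erythroid loci, whose list summed to 386 to 855 FPKM in Jnk2 and 270 to 611 FPKM in control livers. Oxidative phosphorylation genes were called higher at 4 of 36 tested loci and lower at 0, and at 0 without Jnk2 replicate 1 or high fat control replicate 2. NRF2 target and glutathione transferase genes were called higher at 3 of 24 tested loci, cytochrome P450 genes higher at 3 and lower at 3 of 32, and circadian clock genes at 0 of 20. Of all tested loci 7.45% were called higher and 4.96% lower, and counts this small are not read as results about these lists.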
